A study of Homo sapiens with 4 samples.

Results

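The HOX cluster genes were followed in RNA-seq of A549 cells, a line established from a human lung adenocarcinoma, with and without overexpression of the deubiquitinase USP12. Members were chosen by gene symbol alone, as every row named HOXA, HOXB, HOXC or HOXD with a paralog number. This gave 39 of the 50868 genes counted, with 11 in HOXA on chromosome 7, 10 in HOXB on chromosome 17, 9 in HOXC on chromosome 12 and 9 in HOXD on chromosome 2. Messenger RNA was counted in 2 libraries labelled control and 2 labelled as overexpressing USP12. The study describes its A549 control as a vector control and carries USP12 on a pLVX expression vector, so that USP12 levels were set by the vector and not by the gene's own promoter. Nothing states whether replicates came from separate cultures, so p-values measure the spread between these libraries, which may be technical.

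HOX genes encode homeodomain transcription factors that give cells their position along the body axis. Within a cluster, genes with low paralog numbers lie at the 3′ end and are switched on early and anteriorly, often by retinoic acid, while genes with high numbers lie at the 5′ end and mark posterior structures. Polycomb complexes keep silent HOX genes packed, in part through ubiquitin on histone H2A, and Trithorax complexes keep active ones open. HOX proteins bind DNA together with PBX and MEIS proteins. In the lung, genes of the middle of the HOXA and HOXB clusters take part in branching and airway development, and adult tumours often keep or change the HOX pattern of their tissue. USP12 belongs to a family of ubiquitin-specific proteases, and histones H2A and H2B have been described among its substrates.

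The overexpressed gene was checked first. USP12 (chromosome 13, 27066156 to 27171811, minus strand, GRCh38) stood at 15.2 and 34.4 CPM in the controls and at 1745 and 2235 CPM in libraries labelled USP12, where CPM are counts relative to library size, with TMM factors that correct for library composition. Its log2 fold change was 6.32 ± 0.57 (SE, edgeR quasi-likelihood test, adjusted p = 0.0975) and thus over 0.05 in this test, while the edgeR exact test gave it an adjusted p of 6.10e-18 and DESeq2's Wald test 2.98e-30. Totals ranged from 14280081 to 16305356 counts, at which 3 counts, taken as the floor, equal 0.166 to 0.227 CPM. This floor covers counting error only. Epithelial markers were abundant, with KRT8, KRT18, KRT19, EPCAM and CDH1 summing to 9638 and 5060 CPM in the controls and 4275 and 3976 CPM with USP12, while 6 alveolar type II markers summed to 0.144 to 1.82 CPM, with SFTPA2 and SFTPB at 0. Of other cell types, 8 fibroblast markers summed to 34.6, 4.21, 22.8 and 17.5 CPM in control replicates 1 and 2 and USP12 replicates 1 and 2 (DCN at 0), 8 leukocyte markers to 122, 53.9, 78.5 and 61.7 CPM (CD3E and MS4A1 at 0) and 4 endothelial markers to 15.4, 8.59, 0.504 and 1.32 CPM. The endothelial sum and 4 of 5 epithelial markers separated the groups as HOXB8 did, and their part in the HOX results was not tested. In bulk RNA, fewer cells of a type and less RNA per cell cannot be told apart.

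The control libraries did not lie close together, and HOX genes were among those in which they differed. Across the 15222 genes tested, log2 ratios had an SD of 1.31 between the controls and of 0.618 between the USP12 libraries. Control replicate 1 exceeded control replicate 2 in 25 of the 31 HOX genes tested, against 49.5% of all genes tested, with a median HOX difference of 1.04 on the log2 scale against -0.01 for all genes. The column heading of control replicate 1 opens with a date-like number that is not the number the other 3 headings share. As this concerns a single library, whatever that number marks and the culture itself cannot be told apart, and the main HOX results are therefore given also against control replicate 2 alone.

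A549 cells expressed most of the HOX genes. Of the 39 genes, 28 had more than 3 counts in all 4 libraries, and between 31 and 32 were over this floor in each library. HOXD3, HOXD4 and HOXD12 had 0 counts throughout, which limits them to the floor given above. Silent or nearly silent genes lay mostly in HOXD, where 1 gene of 9, HOXD8, was over the floor in every library. The number was 10 of 11 in HOXA, 9 of 10 in HOXB and 8 of 9 in HOXC.

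Levels were compared between genes as CPM per kilobase of exon (GENCODE annotation, release 44). By this measure the highest means lay in HOXB genes, and HOXB8 led all 39 genes with 152, 36.0, 20.6 and 16.3 CPM per kb in control replicates 1 and 2 and USP12 replicates 1 and 2. HOXB7 followed in the order of means with 53.4, 35.9, 27.9 and 27.3 CPM per kb. HOXB9 and HOXB6 came next, with means over the 4 libraries of 25.5 and 24.9 CPM per kb, and HOXB5 with 18.1 CPM per kb. The ranges of these 5 genes overlapped over the 4 libraries, so their order is that of the means alone, which control replicate 1 raised. In control replicate 2 and USP12 replicate 1, HOXC9 lay above HOXB5, at 9.65 against 8.17 and at 10.1 against 9.80 CPM per kb. HOXC13, a hair follicle and nail gene, led HOXC at a mean of 11.0 CPM per kb and HOXC9 stood at 10.3, while HOXB13, known as a prostate lineage factor, reached 9.55 CPM per kb. HOXA7 led HOXA at 8.59 and HOXD8 led HOXD at 1.41 CPM per kb.

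**Figure D1:**
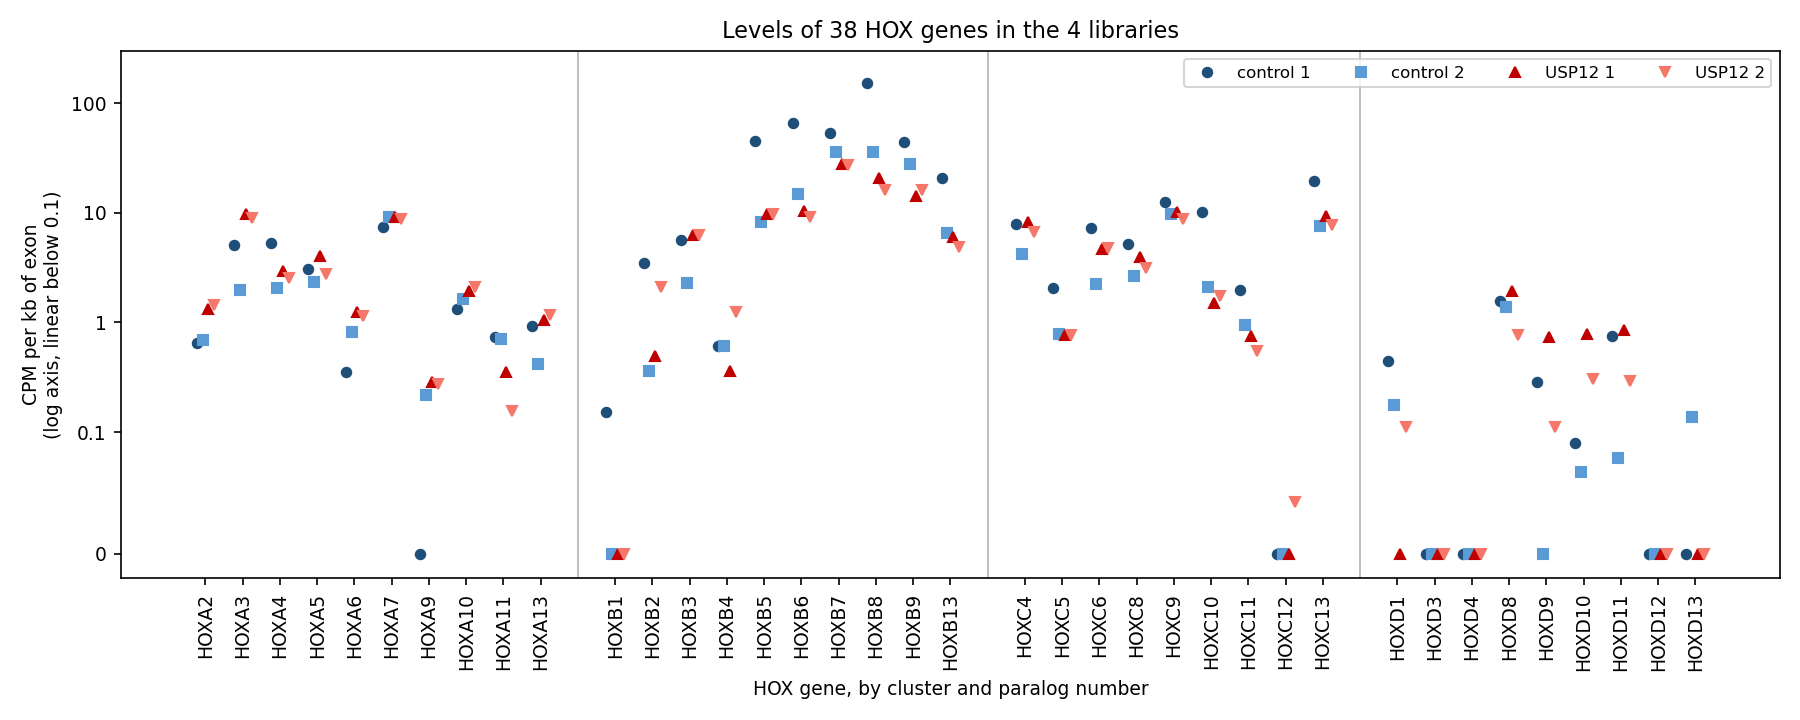
Level of each of 38 HOX genes in the 4 libraries, in CPM per kilobase of exon on an axis that is logarithmic above 0.1 and linear below it, ordered by cluster and paralog number, with 1 point per library. HOXB5 to HOXB9 have the 5 highest means, control 1 (dark circles) lies above the other 3 libraries in all 5 of them, and HOXD3, HOXD4 and HOXD12 sit at 0.

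The makeup of the HOX transcript pool differed between the libraries. Summed over the 39 genes, the level was 491 and 187 CPM per kb in the controls and 177 and 164 CPM per kb in the USP12 libraries. HOXB supplied 79.5% and 71.0% of this sum in the controls against 54.3% and 56.7% in the USP12 libraries, and HOXB8 alone 31.0% and 19.3% against 11.7% and 9.90%. HOXA sums were higher with USP12, at 37.4 and 35.3 CPM per kb against 31.2 and 22.2 in the controls. HOXC sums were 66.7, 30.1, 39.2 and 34.2 CPM per kb, so that the USP12 libraries lay between the controls. HOXD sums were 3.12, 1.85, 4.28 and 1.59 CPM per kb, and there the USP12 libraries lay on either side of the controls. These sums are descriptions with no test.

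For the test, low genes were removed by edgeR's filterByExpr, which kept 31 of the 39 HOX genes. HOXD10 passed only because of its USP12 libraries, so that a difference in it had to be present. It is given as a description and left out of the counts of genes past a threshold or without overlap, which leaves 30 genes. HOXA6 and HOXA9 also needed a USP12 library to pass the filter, but are kept in these counts. The 8 genes left out were HOXB1, HOXC12, HOXD1, HOXD3, HOXD4, HOXD9, HOXD12 and HOXD13. HOXB1 had 5 counts in control replicate 1 and 0 elsewhere, HOXC12 had 2 counts in USP12 replicate 2 and 0 elsewhere, and HOXD13 had 6 counts in control replicate 2 and 0 elsewhere. HOXD1 had 11 and 6 counts in the controls and 0 and 3 with USP12, and HOXD9 had 7 and 0 against 19 and 3. These counts are too low to read a direction.

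With edgeR's quasi-likelihood test and Benjamini-Hochberg adjustment over all 15222 genes, 0 of the 31 HOX genes reached an adjusted p under 0.05. The same was true of all genes, where 0 were called (0.0%), while 1155 genes or 7.59% had an unadjusted p under 0.05, among them 4 of the 30 HOX genes. DESeq2's Wald test, run as an alternative, called 2 HOX genes lower, HOXB6 and HOXB8, and 0 higher, against 1.82% of all genes lower and 0.874% higher. A second threshold was an unadjusted p of 0.05 or less with a log2 fold change of 1 or more in size. The study used it for downregulated genes, and it was applied here in both directions. It was met downwards by HOXB6, HOXB8 and HOXB9, 3 of 30 against 4.41% of all genes, and upwards by HOXA3, 1 of 30 against 2.92% of all genes. With so few members these counts describe which genes lay past the threshold and do not set the HOX genes apart. They also rested on single libraries. Without control replicate 1, the downward count over the same 30 genes was 0 (8.01% of all genes) and the upward count 5 (7.94%). Without control replicate 2, the counts were 9 (13.3%) and 1 (15.6%), the latter HOXA9 against a lone control at 0 counts. Without USP12 replicate 1, they were 1 (1.86%) and 0 (0.985%), and without USP12 replicate 2, they were 1 (2.09%) and 0 (1.02%), where the downward gene was HOXB8 in both.

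In 9 HOX genes both USP12 libraries lay below both controls, against 17.0% of all genes tested, and in 7 both lay above, against 19.5%. The lower genes were HOXA11, HOXB6, HOXB7, HOXB8, HOXB9, HOXB13, HOXC5, HOXC10 and HOXC11, and the higher ones HOXA2, HOXA3, HOXA6, HOXA9, HOXA10, HOXA13 and HOXB3. As HOXA6 and HOXA9 needed a USP12 library to pass the filter, the count of 7 is a description. HOXA9 had 12 counts in control replicate 2 and in both USP12 libraries, so there it was higher only through the scaling to library size. In the remaining 14 of the 30 the groups overlapped. The median log2 fold change of the 30 genes was -0.15, beside -0.06 for all genes tested. It was 0.45 over 11 HOXA genes, -1.23 over 9 HOXB genes, -0.45 over 8 HOXC genes and, with HOXD10 as 1 of 3, 0.49 over HOXD genes. Set against each control alone, the clusters differed in their medians. HOXA had medians of 0.28 against control replicate 1 and 0.48 against control replicate 2, HOXB -1.70 and -0.26, and HOXC -0.90 and 0.06. The direction of the HOXC median thus depended on which control was used, and that of HOXA and HOXB did not.

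**Figure D2:**
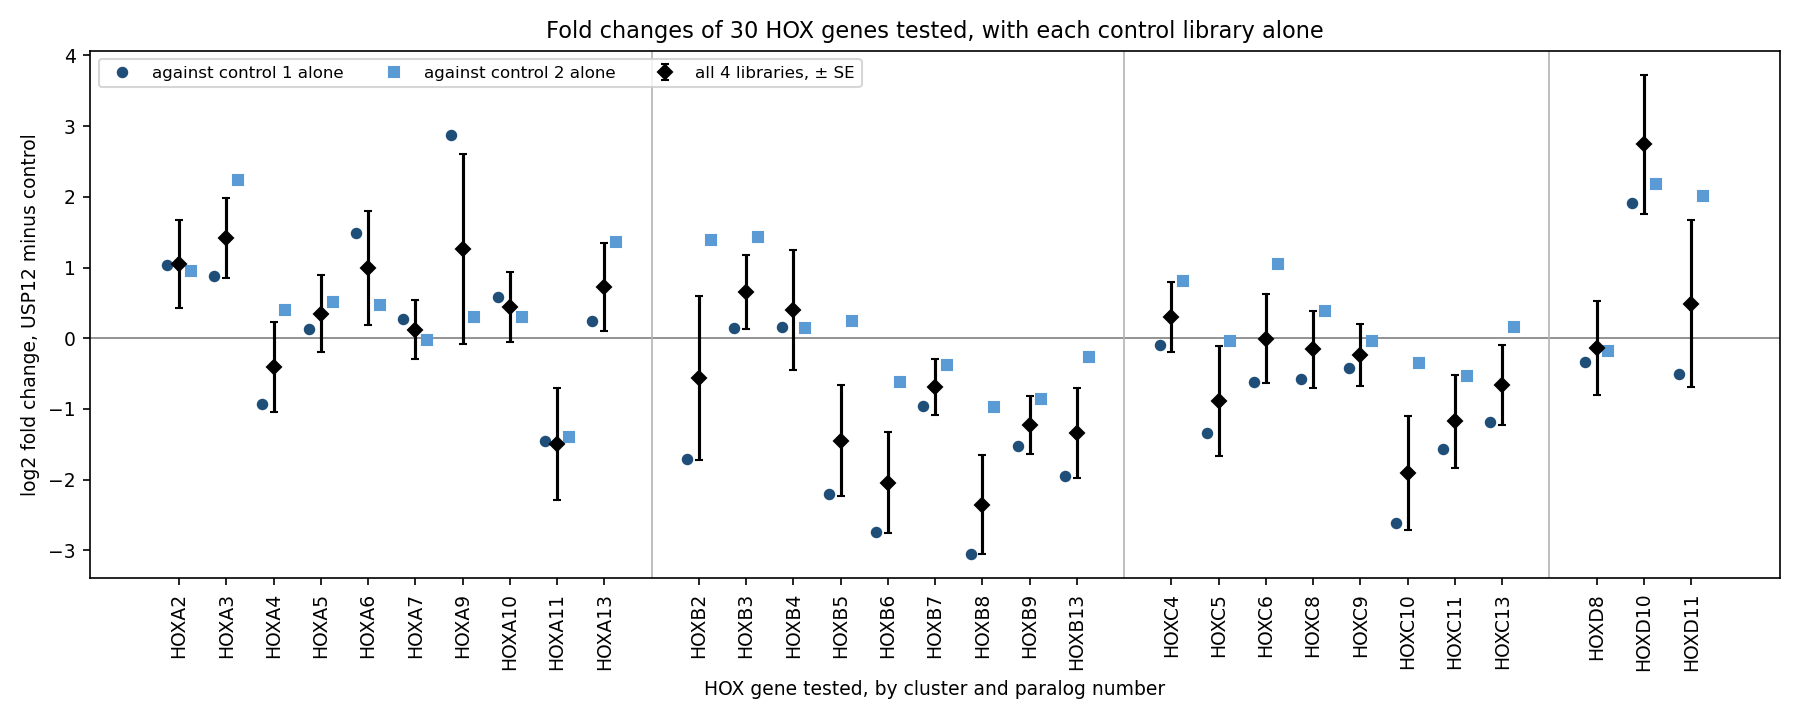
Fitted log2 fold change, USP12 minus control, of 30 HOX genes tested (black diamonds, bars ± SE), with the difference between the mean of the USP12 libraries and each control library alone (circles and squares). HOXB6 to HOXB13 lie below 0 against either control, HOXA2 and HOXA3 above 0 against either, HOXD10 is a description since its USP12 libraries alone took it past the filter, and in 4 of 8 HOXC genes the controls fall on opposite sides of 0.

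The lowest 2 estimates of the tested genes were those of HOXB8 and HOXB6, followed by HOXC10 and HOXA11, and the genes below 0 in HOXB lay mostly at the centre and 5′ end of the cluster. From HOXB5 to HOXB13, a split made after the values were seen, all 6 genes had estimates below 0 with a median log2 fold change of -1.39, beside 53.6% of all genes with an estimate below 0. Against control replicate 1 their median difference was -2.08 and against control replicate 2 it was -0.50, with 5 of the 6 below 0 in the latter, where 49.6% of all genes were below 0. The 3 tested genes of the 3′ end, HOXB2 to HOXB4, had a median of 0.40. As the split followed these values, its counts below 0 are descriptions, and the shares of all genes do not test them.

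HOXB8, which holds back myeloid differentiation when overexpressed, lies on chromosome 17 from 48611377 to 48615292 on the minus strand and shares no exon with another annotated gene. It had 366 and 86.5 CPM in the controls and 49.6 and 39.1 CPM with USP12. The groups did not overlap, but the gap between the controls was larger than that between control replicate 2 and either USP12 library. The log2 fold change was -2.35 ± 0.70 (SE, edgeR, adjusted p = 0.426). It was -3.05 against control replicate 1 and -0.97 against control replicate 2. In edgeR's fit without control replicate 1, which assumes that the lone control varies as the USP12 libraries do, it was -0.96 with an adjusted p of 0.0399, where 5.74% of all genes were called lower.

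HOXB6 had 170 and 38.7 CPM in the controls and 26.9 and 23.8 CPM with USP12. The order of the libraries was that of HOXB8, and the log2 fold change was -2.04 ± 0.71 (SE, edgeR, adjusted p = 0.528), with -2.74 and -0.61 against control replicates 1 and 2. HOXB6 (48595751 to 48604992) shares exon sequence with HOXB3 on its own strand and with HOXB-AS3 on the other. HOXB3 had 42.0 and 17.1 CPM in the controls and 46.2 and 46.5 CPM with USP12, above both controls, with a log2 fold change of 0.65 ± 0.53 (SE, edgeR, adjusted p = 0.912). HOXB-AS3 had between 9 and 16 counts in every library. HOXB3 also shares exon sequence with HOXB4 on its own strand. How shared fragments were assigned is not given in the sources used here, so HOXB3, HOXB4 and HOXB6 remain uncertain.

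HOXB9, a factor of thoracic patterning and mammary growth, separated the groups with a smaller gap between the controls. Its levels were 113 and 71.8 CPM in the controls and 37.0 and 42.1 CPM with USP12. The log2 fold change was -1.23 ± 0.41 (SE, edgeR, adjusted p = 0.496), and -1.52 and -0.86 against control replicates 1 and 2. In edgeR's fit without control replicate 1, the adjusted p of HOXB9 was 0.0412. HOXB7 separated the groups by less and was not past the threshold, with 81.2 and 54.6 CPM in the controls and 42.5 and 41.4 CPM with USP12, a log2 fold change of -0.69 ± 0.39 (SE, edgeR, adjusted p = 0.834). These were the HOXB genes of the lower group in which neither control stood more than 1 log2 unit from the other.

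In HOXB5 and HOXB13, control replicate 1 stood apart from the other 3 libraries. HOXB5, active in the branching lung, had 83.5 CPM in control replicate 1 and 15.2, 18.2 and 17.9 CPM in control replicate 2 and the USP12 libraries. The fitted log2 fold change of -1.45 ± 0.79 (SE, edgeR, adjusted p = 0.815) turned to 0.25 against control replicate 2. HOXB5 shares exon sequence with HOXB-AS3 on the opposite strand. HOXB13 had 63.6, 19.7, 18.1 and 14.8 CPM in the same order, and its log2 fold change of -1.34 ± 0.63 (SE, edgeR, adjusted p = 0.749) shrank to -0.26 against control replicate 2. At the 3′ end, HOXB2 varied within both groups, with 8.55 and 0.887 CPM in the controls and 1.22 and 5.13 CPM with USP12, and HOXB4 had 1.21, 1.22, 0.720 and 2.49 CPM.

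In HOXA, 2 of 11 estimates lay below 0, beside 53.6% of all genes, and 6 genes had both USP12 libraries above both controls, beside 19.5% of all genes. Among the 6 are HOXA6 and HOXA9, which passed the filter with the help of their USP12 libraries. The counts are therefore descriptions, and the shares of all genes do not test them. HOXA3, which patterns the third pharyngeal arch and with it thymus and parathyroid, was the HOXA gene past the unadjusted threshold. It had 21.9 and 8.42 CPM in the controls and 42.0 and 38.8 CPM with USP12, a log2 fold change of 1.42 ± 0.56 (SE, edgeR, adjusted p = 0.638), with 0.88 and 2.24 against control replicates 1 and 2. Its exons overlap those of HOXA-AS2 and HOXA-AS3 on the opposite strand, and those of 2 annotated genes without a symbol on its own strand. HOXA-AS2 had 4.01 and 5.76 CPM in the controls and 11.7 and 11.2 CPM with USP12, a log2 fold change of 1.22 ± 0.50 (SE, edgeR, adjusted p = 0.649). The libraries were made with a strand-specific kit, but whether the counting used strand is not given, so the HOXA3 and HOXA-AS2 counts cannot be told apart with certainty, and strand would not separate HOXA3 from the overlapping genes on its own strand.

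HOXA2, a hindbrain gene next to HOXA3, was low and even within groups, with 1.51 and 1.61 CPM in the controls and 3.10 and 3.39 CPM with USP12. Its log2 fold change was 1.05 ± 0.62 (SE, edgeR, adjusted p = 0.840), and it was close to this against either control (1.03 and 0.96). HOXA13, a limb and genital tubercle gene, had 4.69 and 2.11 CPM against 5.33 and 5.89 CPM. HOXA10, a uterine and blood cell regulator, had 4.92 and 6.04 CPM against 7.13 and 7.83 CPM. HOXA6 had 0.454 and 1.05 CPM against 1.58 and 1.46 CPM, and HOXA9 had 0 counts in control replicate 1 and 12 counts in each of the other 3 libraries. HOXA9 is best known from leukaemia, and against control replicate 2 its difference was 0.30 on the log2 scale. HOXA6, HOXA9 and HOXA10 share exon sequence with other annotated genes on their own strand, and HOXA13 with HOTTIP on the opposite strand. They are uncertain for that reason. HOXA3 and HOXA6 overlap the same annotated gene, as do HOXA3 and HOXA4, and HOXA9 and HOXA10, so these genes may not be separate observations.

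HOXA11, also a uterine and limb gene, was the HOXA gene with the lowest estimate. It had 26 and 34 counts, or 1.97 and 1.88 CPM, in the controls and 13 and 6 counts, or 0.936 and 0.416 CPM, in the USP12 libraries. The controls lay close together here, and the log2 fold change was -1.50 ± 0.79 (SE, edgeR, adjusted p = 0.806), with -1.45 and -1.40 against control replicates 1 and 2. HOXA11 shares exon sequence with HOXA11-AS on the opposite strand and is uncertain for that reason. In HOXA4, HOXA5 and HOXA7 the groups overlapped, with log2 fold changes of -0.41, 0.34 and 0.12. HOXA5, the HOXA gene tied most closely to lung development, had 5.22 and 3.99 CPM against 6.98 and 4.71 CPM.

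HOXC10, a gene of lumbar segments, had the lowest fitted change of the tested HOXC genes, with 24.1 and 4.93 CPM in the controls and 3.53 and 4.16 CPM with USP12. The log2 fold change was -1.91 ± 0.81 (SE, edgeR, adjusted p = 0.674), and -2.61 and -0.35 against control replicates 1 and 2. HOXC11 had 6.51 and 3.10 CPM against 2.45 and 1.80 CPM, and HOXC5 had 3.33 and 1.28 CPM against 1.22 and 1.25 CPM, so that in both the USP12 libraries lay below the lower control. In HOXC5 this gap was slight, with a log2 difference of -0.04 against control replicate 2. The other 5 overlapped. Among them HOXC13 had 45.8 and 17.8 CPM against 22.0 and 18.3 CPM, HOXC9 had 21.0 and 16.1 CPM against 16.8 and 14.6 CPM, and HOXC6 had 25.1 and 7.81 CPM against 16.1 and 16.6 CPM with a log2 fold change of -0.01. HOXC4 and HOXC8 had log2 fold changes of 0.30 and -0.16. HOXC4, HOXC5, HOXC6, HOXC9 and HOXC10 share exon sequence with other annotated genes on their own strand and are uncertain for that reason. HOXC5 and HOXC10 overlap the same annotated gene, and HOXC4, HOXC5 and HOXC6 overlap another, so these too may not be separate observations.

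HOXD was measured in few counts. HOXD10, a gene of lumbar motor neurons and limbs, had 3 counts in each control library and 27 and 11 counts with USP12, or 0.227 and 0.166 CPM against 1.94 and 0.762 CPM. The groups did not overlap. The ratio of the scaled counts was 6.99, with a 95% exact binomial interval of 2.93 to 20.2 that covers counting error only, as the controls stood at the floor. HOXD11, with which HOXD10 shares exon sequence, had 21 and 3 counts in the controls and 25 and 9 counts with USP12, with a log2 fold change of 0.49. HOXD8 had 54, 66, 70 and 29 counts, and a log2 fold change of -0.14.

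**Figure D3:**
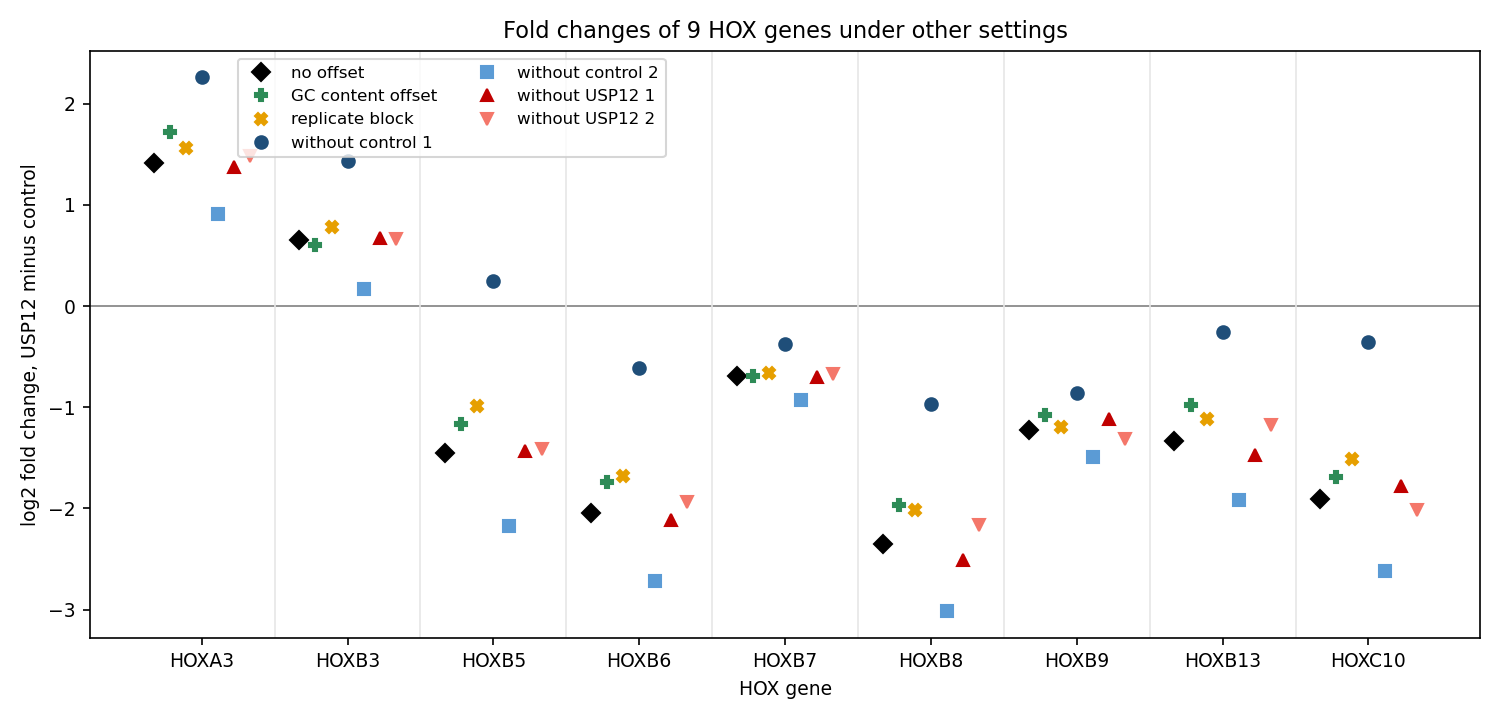
Log2 fold change, USP12 minus control, of 9 HOX genes from edgeR's quasi-likelihood fit (black diamonds) and under a GC content offset, the replicate block and with each library left out. Leaving out control replicate 1 (dark circles) brings HOXB8 to -0.96, HOXB6 to -0.61 and HOXB5 to 0.25, and lifts HOXA3 to 2.26.

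HOX genes are rich in G and C, and this was measured beside the result. Their exons had a median GC content of 54.3%, with a range over tested members of 43.8% to 60.7%, against 48.3% for all genes tested. A smooth fit of each library's levels on GC content gave each gene a fitted difference between control replicates 1 and 2. The median of these fitted values was 0.47 over the HOX genes on the log2 scale, against -0.11 for all genes. It is not a share of the observed median difference. In HOXA the fitted median was 0.42, beside an observed median difference of 0.06. With a GC offset per library, which was chosen after seeing the data, the log2 fold change was -1.97 for HOXB8, -1.74 for HOXB6, -1.07 for HOXB9 and 1.72 for HOXA3. Under that offset 0 HOX genes were called, and 0.0928% of all genes were called lower and 0.0398% higher. The part of GC content in the control difference beyond this was not tested.

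HOXA3 and HOXD10 had promoters in the RefSeq table used here (GRCh38.p14), which held 27 promoters of 20 HOX genes among 35116 promoters. Each entry runs from 250 bases before to 50 bases after a transcript start. For HOXA3 the promoter shown is the most upstream of those listed, at chr7:27152534-27152833 on the minus strand, and for HOXD10 it is the listed promoter at chr2:176116528-176116827 on the plus strand, inside the annotated gene. They are shown because the edgeR estimates of both genes lay past the unadjusted threshold, which for HOXD10 is a description only. HOXB6, HOXB8 and HOXB9, also past it, had no promoter among the 27. Polycomb and Trithorax control of HOX genes is tied to CpG-rich start sites, and capitals mark CpG dinucleotides.
HOXA3: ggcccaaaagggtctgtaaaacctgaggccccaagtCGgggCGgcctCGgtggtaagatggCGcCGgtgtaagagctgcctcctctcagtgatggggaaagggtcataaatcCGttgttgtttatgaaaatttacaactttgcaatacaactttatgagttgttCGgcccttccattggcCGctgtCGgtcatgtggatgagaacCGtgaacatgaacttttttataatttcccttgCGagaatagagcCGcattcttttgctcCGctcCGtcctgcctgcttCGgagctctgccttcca
HOXD10: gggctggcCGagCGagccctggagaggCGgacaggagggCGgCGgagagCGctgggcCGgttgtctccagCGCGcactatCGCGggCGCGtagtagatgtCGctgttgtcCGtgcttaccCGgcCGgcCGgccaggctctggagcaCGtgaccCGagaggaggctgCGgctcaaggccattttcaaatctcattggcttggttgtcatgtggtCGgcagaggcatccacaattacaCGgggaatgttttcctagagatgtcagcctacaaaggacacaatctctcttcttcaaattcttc
The HOXA3 sequence held 15 CpG at 50.7% GC and that of HOXD10 23 CpG at 60.0% GC, beside a median of 22 over the 27 HOX promoters, which ranged from 0 to 44, and 14 over all promoters. TATAAA, searched on both strands, was found in the HOXA3 sequence and not in that of HOXD10. It occurred in 5 of 27 HOX promoters and 11.5% of all promoters. TGATTNAT, a composite site of PBX with HOX proteins, occurred in 2 HOX promoters (HOXA2 and HOXD11) and 2.82% of all promoters, and TAATTA, the homeodomain core, in 2 HOX promoters (HOXD3 and HOXD11) and 4.84% of all. A match describes the letters and no more.

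The partners and regulators of HOX genes were read as lists, again with 0 genes called at an adjusted p under 0.05 by edgeR. Of 9 cofactor genes 7 were tested, with 5 estimates above 0, 2 below and a median log2 fold change of 0.45. The most abundant by CPM were MEIS3, at 119 and 56.7 CPM in the controls and 65.5 and 53.2 CPM with USP12, and PBX2, at 62.1 and 38.6 against 60.5 and 77.1 CPM. PBX3 and MEIS1, named after their values were seen, had both USP12 libraries above both controls, as did 19.5% of all genes, with log2 fold changes of 1.15 and 1.47.

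The 22 Polycomb group genes were all tested, and their estimates divided evenly, 11 below and 11 above 0, with a median of -0.01. CBX6, a chromobox protein and one of the most abundant of them by CPM, stood at 172 and 134 CPM in the controls and at 108 and 127 CPM with USP12, with a log2 fold change of -0.38. RBBP7, a histone-binding subunit shared by several chromatin complexes, was 1 of 22 past the unadjusted threshold upwards (2.92% of all genes), at 57.3 and 72.3 CPM against 141 and 120 CPM, with a log2 fold change of 1.01 ± 0.36 (SE, edgeR, adjusted p = 0.554). Of 11 Trithorax, COMPASS and H3K27 demethylase genes, 6 were below and 5 above 0 with a median of -0.12 and 0 past the threshold. KMT2D and KMT2B, methyltransferases of H3K4, led them with log2 fold changes of -0.68 and -0.32.

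Among 18 genes of retinoic acid handling and the caudal homeobox group, 12 were tested, 9 below and 3 above 0 with a median of -0.41, which was 0.32 without control replicate 1. Of the 12, 1 passed the unadjusted threshold upwards (2.92% of all genes) and 1 downwards (4.41%). RARB, a retinoic acid receptor and itself a retinoic acid target, had 2.27 and 2.94 CPM in the controls and 12.6 and 13.7 CPM with USP12, a log2 fold change of 2.33 ± 0.51 (SE, edgeR, adjusted p = 0.279), with 2.46 and 2.11 against control replicates 1 and 2. CYP26B1, which degrades retinoic acid, had 53.0 and 21.1 CPM against 10.3 and 6.58 CPM, a log2 fold change of -2.13 ± 0.61 (SE, edgeR, adjusted p = 0.394), with -2.67 and -1.34. ALDH1A1, the most abundant of the list and a maker of retinoic acid, had a log2 fold change of 0.12, and DHRS3, a retinaldehyde reductase, 0.30.

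Of 19 noncoding RNA genes in the clusters 18 were found and 10 tested, 5 on each side of 0 with a median of 0.01, which was 0.34 without control replicate 1. HOXA-AS2, described above, was the 1 member of 10 past the threshold upwards (2.92% of all genes), and HOXB-AS1, with 10.6 and 5.87 CPM in the controls and 9.93 and 7.62 CPM with USP12, was the most abundant.

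The genes on either side of the clusters were also read. Of 14 flanking genes 13 were found and 9 tested, 5 below and 4 above 0 with a median of -0.13. The 2 of 9 past the unadjusted threshold were both lower (4.41% of all genes), and both flank HOXB. SKAP1, an adaptor of T cell signalling on the 3′ side, had 26.4 and 4.71 CPM in the controls and 1.51 and 0.416 CPM with USP12, a log2 fold change of -4.00 ± 1.08 (SE, edgeR, adjusted p = 0.353), with -2.35 against control replicate 2. TTLL6, a tubulin polyglutamylase on the 5′ side, had 25.7 and 21.2 CPM against 5.98 and 6.51 CPM, a log2 fold change of -1.91 ± 0.45 (SE, edgeR, adjusted p = 0.302), with -1.75 against control replicate 2. The most abundant flanking genes were CBX5, with a log2 fold change of 0.68, and CALCOCO1, with -0.40.

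**Figure D4:**
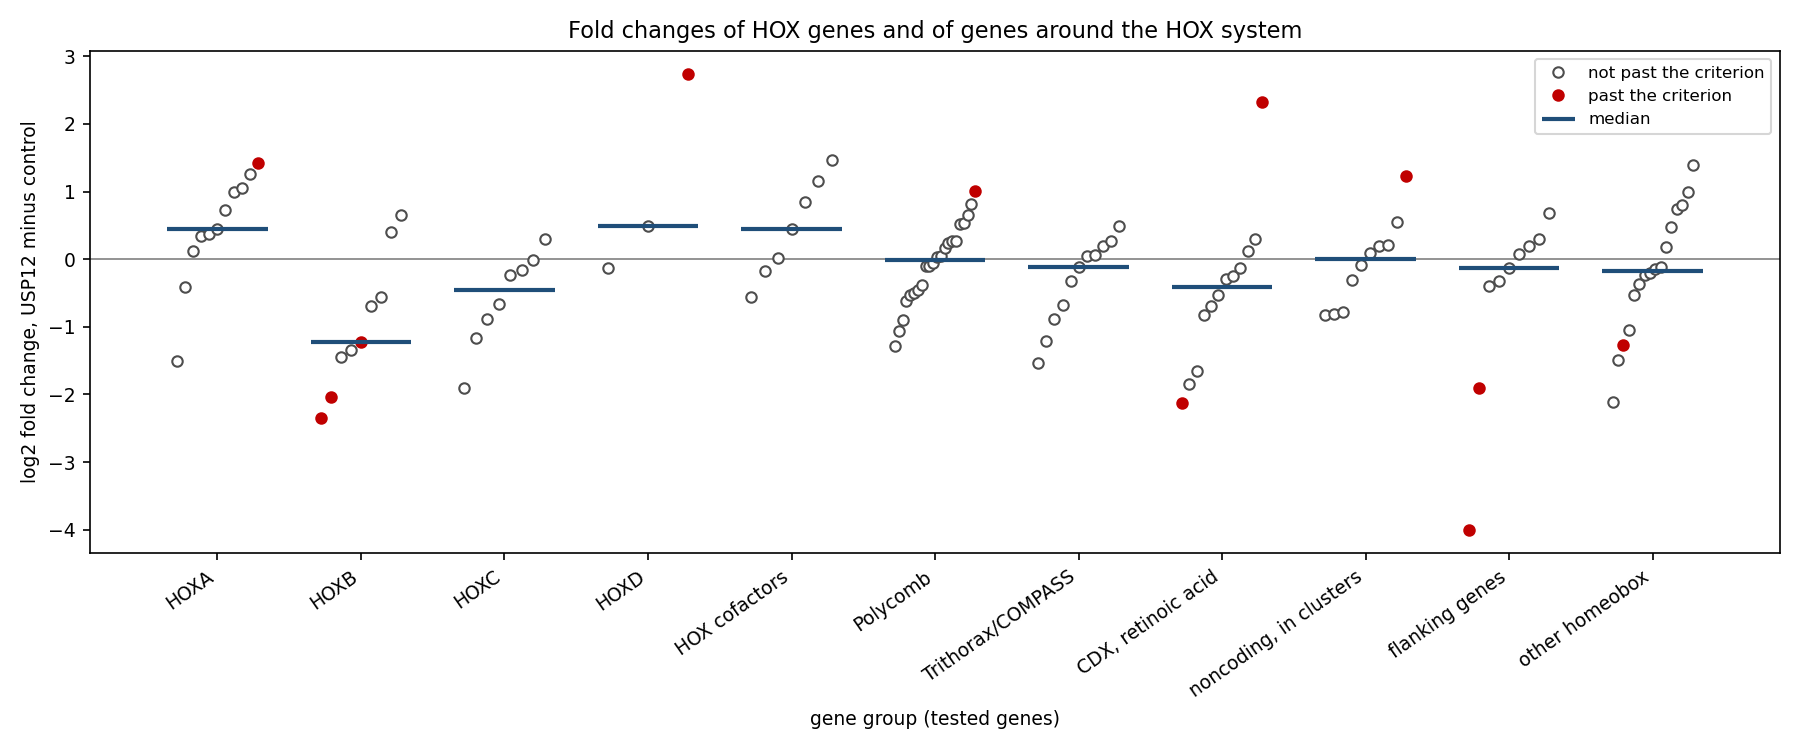
Fitted log2 fold change, USP12 minus control, of the tested genes in each HOX cluster and in 7 lists of genes around the HOX system, with 1 circle per gene, filled where the unadjusted p was 0.05 or less and the log2 fold change 1 or more in size, and a line at the median. HOXB has the lowest median of the groups at -1.23, the cofactors have a median of 0.45, and that of the Polycomb genes is -0.01.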

How the data were processed

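The deposited values were raw counts per gene, made from uniquely mapped fragments, for 4 libraries of a stranded mRNA kit. The authors trimmed adaptors, removed ribosomal RNA reads, aligned to GRCh38 with HISAT2 2.0.4 and counted with StringTie 1.3.0, as named in the methods and the submitters' processing notes. The annotation behind the counts and whether strand was used are not given in the sources used here. From the counts, log2 fold changes and p-values were computed over 15222 genes in R 4.3.3 with edgeR 4.0.16 (filterByExpr, TMM, quasi-likelihood test, Benjamini-Hochberg), with no block. Approximate standard errors were taken as the fold change over the root of the F statistic. Differences from 1 control used log2 CPM with a prior count of 2. Exon lengths, GC content (49659 genes) and exon overlaps came from GENCODE release 44. The HOX genes were named, and from each list the 2 members of highest CPM and those past the unadjusted threshold, except that 1 HOX gene and 3 list genes enter the counts, sums and medians but their single values are not reported here. PBX3 and MEIS1 were named after their values were seen, outside this rule. The members and lists were chosen with earlier results of these data known. The alternatives were DESeq2 1.42.0 size factors and Wald test, the edgeR exact test, no filter, at least 10 counts in every library, the replicate number as a block, raw library totals for levels, leaving out each library, and, chosen after seeing the data, a GC content offset alone and with the block. The code was tested on simulated data.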

Additional observations from a re-analysis of the deposited data

How the results depend on the processing

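Among the 30 tested HOX genes with single values reported, HOXD10 included, the direction of 19 held under all settings in which they were tested. HOXB8, HOXB6, HOXB9 and HOXA3 were among these 19, and 11 genes reversed under at least 1 setting. HOXD10 is also counted in the 19, but its USP12 libraries alone took it past the filter, so its direction carries no weight. These 30 are not the 30 of the threshold counts, which leave HOXD10 out. DESeq2's size factors and a minimum of 10 counts in every library left 0 HOX genes called by edgeR. The count of HOX genes called lower, 0 by edgeR's quasi-likelihood test, was 2 without a filter on low counts (1.46% of all genes) and 2 by DESeq2's Wald test (1.82%). The count called higher was 0 in both (0.673% and 0.874% of all genes). Leaving out either control library changed both counts. Past the unadjusted threshold, the lower count of 3 became 6 without a filter, 6 by the Wald test and 0 to 9 with 1 library left out, and the higher count of 2, HOXD10 included, became 1 with the 10-count minimum, 1 by the Wald test and 0 to 7 with 1 library left out. Over all genes, calls went from 0 to 361 lower and 167 higher without a filter, 277 and 133 by the Wald test, 262 and 167 by the exact test, 14 and 6 with the GC content offset, and to 28 to 2612 lower and 12 to 2550 higher with 1 library left out. The median of the HOXD genes, HOXD10 among them, lay between -0.69 and 2.88 with 1 library left out. There the filter was rerun, so that the set of HOXD genes was not the same in every fit. With the 10-count minimum it was -0.14, the value of HOXD8 alone. The log2 fold change of USP12 was 6.33 without a filter, 6.31 by the Wald test, 6.32 by the exact test and 6.38 with the GC content offset, in each with an adjusted p under 0.05, and 5.86 to 7.06 with 1 library left out. The log2 fold change of HOXC6 reversed from -0.01 to 0.021 without a filter and 0.056 with the GC content offset. The fits without a filter, without USP12 replicate 1 and without USP12 replicate 2 gave every gene the variance of the trend, which the main edgeR fit did not. The cause of these shifts was not tested.

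The groups share replicate numbers 1 and 2, but the deviations of same-numbered libraries from the mean of their group had a correlation across genes of only 0.152, so the numbers were not read as pairs. With the replicate block, edgeR called 1 HOX gene lower, HOXB8 at -2.02 (adjusted p = 0.00857). In all, 251 genes were called lower (1.65%) and 153 higher (1.01%), in a fit that gave every gene the variance of the trend. The higher count past the unadjusted threshold was then 1 (3.78% of all genes), USP12 was at 6.43 and HOXC6 at 0.22. With the GC content offset added to the replicate block, 2 HOX genes were called lower (HOXB8 and HOXB6) and 1 higher (HOXA3). In all, 316 genes were called lower (2.09%) and 183 higher (1.21%). The higher threshold count was 1 (4.35% of all genes), USP12 was at 6.38 and HOXC6 at 0.21.

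With 1 library left out, the log2 fold changes that reversed ranged from -0.91 to 0.42 for HOXA4, -0.019 to 0.31 for HOXA7, -1.91 to 1.84 for HOXB2, -0.75 to 1.05 for HOXB4, -2.18 to 0.25 for HOXB5, -0.063 to 0.83 for HOXC4, -0.59 to 1.07 for HOXC6, -0.54 to 0.41 for HOXC8, -1.16 to 0.18 for HOXC13, -0.93 to 0.38 for HOXD8 and -0.45 to 2.81 for HOXD11. With raw library totals, the mean levels per kilobase of the 30 tested HOX genes with single values reported moved by less than the replicate spread. Depth limits HOXD most, where counts of 3 or fewer stand in at least 1 library for every gene but HOXD8.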

Other observations

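Other homeobox genes outside the HOX clusters gave a mixed picture in these cells. Of 31 genes of the DLX, MSX, PITX, EMX, IRX, MEOX, GBX, PDX, GSX and TGIF families and the family of SIX5, 16 were tested, 10 with estimates below 0 and 6 above, with a median log2 fold change of -0.17, which was 0.18 without control replicate 1, and 0 at an adjusted p under 0.05 by edgeR, and 7 were at 0 counts in all libraries. PITX1, a factor of hindlimb identity, was the 1 member of 16 past the unadjusted threshold downwards (4.41% of all genes), with 66.7 and 43.3 CPM in the controls and 24.1 and 21.6 CPM with USP12, a log2 fold change of -1.27 ± 0.43 (SE, edgeR, adjusted p = 0.501), and -1.54 and -0.92 against control replicates 1 and 2. The most abundant were TGIF1 and SIX5, with log2 fold changes of -0.15 and -0.37, and in both the groups overlapped.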
